A study of Sus scrofa with 16 samples.

Results

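The genes described here are 10 cytochrome P450 genes of the CYP1, CYP2 and CYP3 families, measured in pig liver: CYP1A1, CYP1A2, CYP2A19, CYP2B22, CYP2C33, CYP2C49, CYP2D25, CYP2E1, CYP3A29 and CYP3A39. They were chosen by symbol, as the probes whose gene name or description on the array carries one of these symbols. All 10 had a probe, with 32 probes in total among the 43603 on the array. All 32 passed the filter on dim signal, which left 30097 probes and 4339 gene symbols. Liver total RNA came from 16 pigs (Sus scrofa), each weighing 20 kg and given free access to feed, with 1 array per pig. There were 8 pigs of a line selected for low residual feed intake (low-RFI, labelled RFIneg) and 8 of a line selected for high residual feed intake (high-RFI, labelled RFIpl). Residual feed intake is the feed an animal eats beyond, or short of, what its growth and maintenance predict. The comparison asks how these transcripts differ between the lines. Each direction of selection is represented by a single line, so selection and other differences between the lines cannot be told apart.

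Cytochrome P450 enzymes are haem proteins of the endoplasmic reticulum that oxidise drugs, plant compounds, steroids and microbial products such as skatole, with electrons delivered by cytochrome P450 reductase (POR) and cytochrome b5. Their genes respond to sensor receptors: the aryl hydrocarbon receptor (AHR) acts on the CYP1A genes, and the constitutive androstane receptor (NR1I3) and the pregnane X receptor (NR1I2) act on CYP2B, CYP2C and CYP3A genes. In liver they are made by hepatocytes, many of them mainly in the cells around the central vein, and they lie in clusters of close relatives, so that related transcripts can be hard to separate by hybridisation.

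Probe sequences are shown for the members on which the results turn, as the scanner files give them, 5′ to 3′. The first pair are probes of CYP2C33 that start at bases 327 and 368 of its transcript and so cover the same 19 bases, of which 17 agree. Capitals mark the letters that differ, C49G and G56A, counted from 1 at the 5′ end of the first probe, with the base of the first probe written first. This pair is shown because its signals did not follow each other over pigs.
CYP2C33 A_72_P542129: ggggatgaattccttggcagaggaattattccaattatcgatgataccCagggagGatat
CYP2C33 A_72_P252252: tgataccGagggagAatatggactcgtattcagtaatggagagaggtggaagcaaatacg
The next probes are the CYP2C49 and CYP2A19 probes with the widest range over pigs for their gene, the brighter CYP1A2 probe, and the CYP2D25 probe with the largest line difference of its gene.
CYP2C49 A_72_P496311: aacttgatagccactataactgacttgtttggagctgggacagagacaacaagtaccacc
CYP2A19 A_72_P442836: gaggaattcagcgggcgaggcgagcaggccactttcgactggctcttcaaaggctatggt
CYP1A2 A_72_P440936: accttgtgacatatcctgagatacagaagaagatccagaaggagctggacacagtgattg
CYP2D25 A_72_P528160: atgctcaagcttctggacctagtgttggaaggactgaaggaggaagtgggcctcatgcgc
None of the 32 probes shared a run of 20 or more bases with a probe of another gene on the array. Probes were not compared with whole transcripts, so binding to the transcript of a related gene was not tested. Within the set, 2 CYP3A29 probes, A_72_P755349 and A_72_P797432, share a run of 48 bases and are not independent of each other.

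The tissue label fitted its markers. Of 12 hepatocyte markers 10 were tested, and albumin (ALB) averaged 9.32 ± 0.13 over low-RFI and 9.29 ± 0.21 over high-RFI pigs (mean ± SD of 8). The mean level of the 10 ran from 7.56 to 7.97 in low-RFI and from 7.51 to 7.85 in high-RFI pigs. A level here is log2 signal after subtraction of the array's 75th percentile. The arrays lay on 4 slides, each with 2 pigs of each line, and 28695 to 35126 probes per array were well above background. High-RFI arrays were noisier: the coefficient of variation of repeated probes averaged 8.04 ± 0.66% in high-RFI and 6.97 ± 0.50% in low-RFI arrays. Noise and line thus overlap, and a fit with noise as a covariate cannot tell them apart. The scanner software marked 5 arrays for evaluation, all high-RFI. Without these, only high-RFI pigs 4, 5 and 7 are left to set against the 8 low-RFI pigs. Precision depends on how many arrays there are and on how far pigs of a line lie apart on a probe. The standard error (SE) of a change had a median of 0.16 over tested probes. A change is the low-RFI mean minus the high-RFI mean, from a limma fit of all tested probes, with Benjamini-Hochberg adjustment and a threshold of 0.05. Probes bind with different strength, so no level is set against that of another probe.

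No P450 gene of the set differed between the lines at an adjusted p under 0.05. In all, 3 of the 30097 tested probes did, 0.00997%. By the brightest probe of each gene, 5 genes were above 0 and 5 below, where 49.7% of all tested probes were above 0. Only CYP1A2 crossed 0 under the other scalings of the arrays, with median scaling. The median change of the 10 genes was 0.02, and from -0.01 to 0.06 under those scalings, and that of all tested probes was -0.0012. At an unadjusted limma p under 0.05 there were 2 genes and 7 of the 32 probes, where 5.45% of all tested probes passed. CYP2D25 was the gene higher in low-RFI liver (2.46% of all tested probes in that direction) and CYP3A29 the gene lower there (2.99%). These 7 were the 3 probes of CYP2D25, the 3 of CYP3A29 and 1 of CYP2C33. Probes of 1 gene share their target and are no separate evidence. No member had lines that failed to overlap, which was the case for 0.0432% of tested probes. In bulk tissue, fewer cells of a type and less RNA per cell cannot be told apart.

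**Figure D1:**
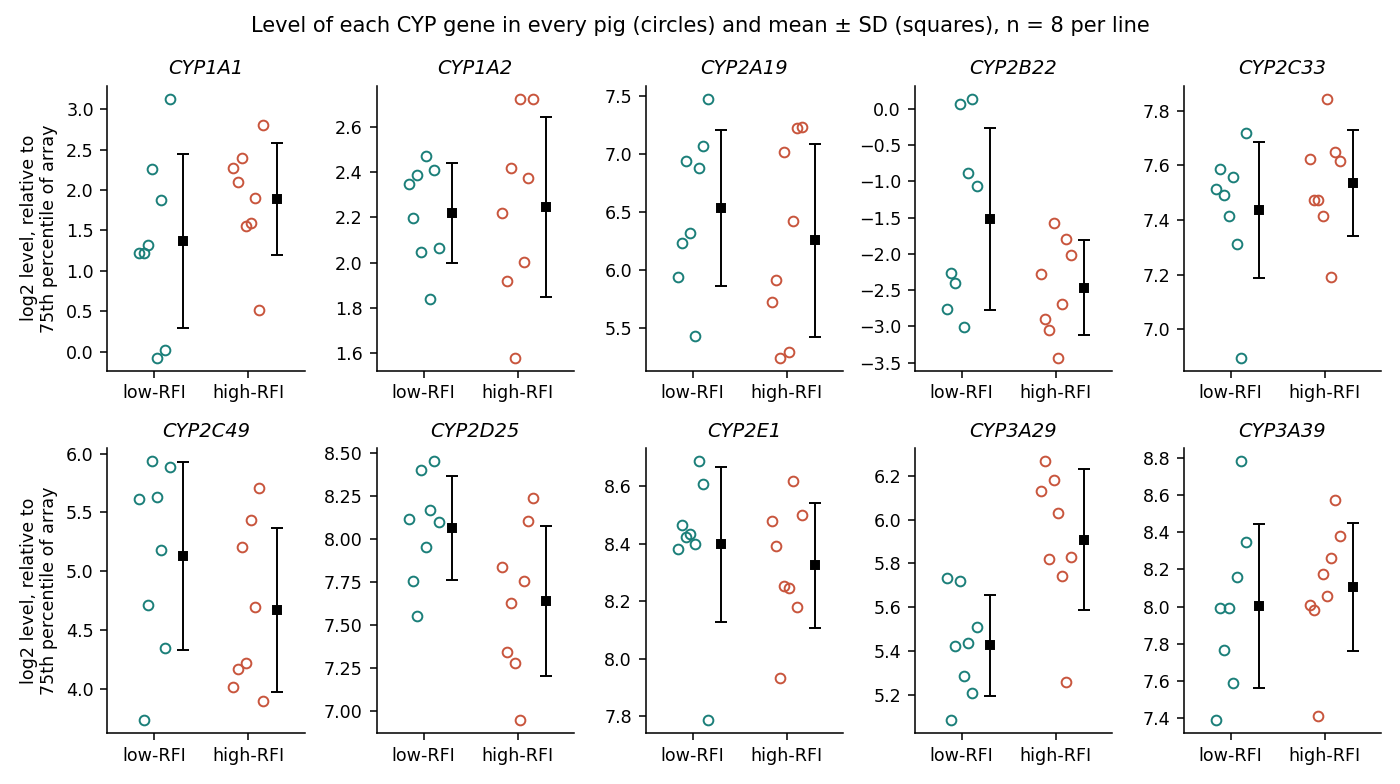
Log2 level of each gene's brightest probe (y axis, relative to the 75th percentile of the array) in each of the 8 low-RFI and 8 high-RFI pigs (circles, in order of replicate number), with mean ± SD (squares). The lines overlap in all 10 panels; CYP3A29 shows all 8 low-RFI pigs under the high-RFI mean of 5.91, and CYP2B22, CYP2A19, CYP1A1 and CYP2C49 span the widest ranges between pigs.

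Of the CYP1 genes, which act on planar aromatic compounds, CYP1A1 was measured by 2 probes. Its brighter probe ran from -0.08 over a median of 1.28 to 3.13 in low-RFI pigs and from 0.51 over a median of 1.997 to 2.80 in high-RFI pigs. Both the lowest and the highest pig were low-RFI, so the high-RFI range lay within the low-RFI range. The change was -0.52 (SE 0.41, limma adjusted p = 0.979), and it was -0.57 (SE 0.36) on the other probe. Within slides the brighter probe gave -1.46, -1.27, 0.57 and 0.09, so the direction was not the same on every slide. Without the 5 marked arrays its change was 0.15, with only high-RFI pigs 4, 5 and 7 left of that line. High-RFI pig 7 was the lowest of its line on this probe, at 0.51 against 1.55 to 2.80.

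CYP1A2, the main CYP1A enzyme of liver, had a brighter probe (A_72_P440936, shown above) that ran from 1.84 over 2.27 to 2.47 in low-RFI and from 1.58 over 2.30 to 2.73 in high-RFI pigs. The low-RFI pigs lay entirely inside the high-RFI range, and the change was -0.02 (SE 0.16, limma adjusted p = 0.998), or 0.01 with arrays scaled by their median. A second probe that the array lists under CYP1A2 (A_72_P758583) ran from -1.06 over -0.54 to 0.21 in low-RFI and from -1.45 over -0.89 to -0.17 in high-RFI pigs. Its change was 0.39 (SE 0.20, limma adjusted p = 0.955), with 7 of 8 low-RFI pigs above the high-RFI mean. Over pigs the 2 probes did not follow each other (r = -0.285, rho = -0.335, n = 16 pigs). The second probe had r from 0.637 to 0.747 with the 7 CYP2A19 probes, 0.637 and 0.568 with the CYP2B22 probes and 0.625 with the CYP3A39 probe. It shared no more than 20 letters with any CYP2A19 probe in the best gap-free alignment, which compares probes and not transcripts. Whether it binds the CYP2A19 transcript was not tested. The CYP1A2 values of this second probe are therefore uncertain as to the transcript measured.

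CYP2A19 is the pig enzyme of the CYP2A subfamily and takes part in the breakdown of coumarin and skatole. Its brightest probe ran from 5.44 over 6.60 to 7.48 in low-RFI and from 5.25 over 6.17 to 7.24 in high-RFI pigs. Pigs of both lines lay near either end. The change was 0.28 (SE 0.35, limma adjusted p = 0.983), and the 7 probes gave changes from 0.07 to 0.28, each smaller than its SE. All 7 probes ranked the pigs nearly alike, with r from 0.933 to 0.998 between probes. The same pig, high-RFI pig 3, was lowest on all 7.

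CYP2B22, the pig CYP2B enzyme and a classical target of the phenobarbital response, had the largest line difference of the set by brightest probe and also the largest SE. Its brighter probe ran from -3.00 over -1.66 to 0.14 in low-RFI and from -3.43 over -2.49 to -1.57 in high-RFI pigs. Of the low-RFI pigs, 4 lay above every high-RFI pig, and the other low-RFI pigs lay within the high-RFI range. The change was 0.95 (SE 0.45, 1.93-fold, exact permutation p = 0.0800, limma adjusted p = 0.918), and within slides it was 1.43, 0.28, 0.05 and 2.04. The other probe was well above background on 5 low-RFI and 4 high-RFI arrays and gave 0.60 (SE 0.54). CYP2B22 correlated with the noise of the array over pigs (r = -0.591), and with that noise as a covariate, an alternative added after the data had been seen, its change was 0.16 (SE 0.59). Without the 5 marked arrays the change was 0.75 (SE 0.71). The change had an unadjusted limma p under 0.05 with quantile (0.99), loess (0.96), median (0.98) and normexp (0.67) scaling, on the values of the authors' deposited table (0.95), and with the slide as a fixed block or the replicate number as a block (0.95 in both), at limma adjusted p from 0.414 to 0.952.

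CYP2C33 and CYP2C49 belong to the CYP2C subfamily, whose human relatives clear many drugs. The brightest CYP2C33 probe ran from 6.90 over 7.50 to 7.72 in low-RFI and from 7.19 over 7.54 to 7.84 in high-RFI pigs. The change was -0.10 (SE 0.12, limma adjusted p = 0.983). Its spread within a line exceeded 61.8% of tested probes of like level, within 0.5 of its mean level, and its pigs spanned a 1.93-fold range. On 3 other probes, A_72_P490065, A_72_P185221 and A_72_P526917, the spread exceeded 81.4% to 85.4% of such probes and the range was 2.95-fold to 3.57-fold, so how steady the gene appears depends on the probe. The lowest pig on 5 of the 6 probes was low-RFI pig 7, the exception being A_72_P542129. The 4 probes from base 1110 of the transcript onwards followed each other at r from 0.881 to 0.974. The overlapping pair shown above did not: A_72_P542129 correlated at -0.141 with A_72_P252252 and at 0.110 to 0.247 with the other 4, and A_72_P252252 at 0.377 to 0.579 with those. The pair also differed in its line values. A_72_P542129 gave 0.01 (SE 0.16), with a median of 3.56 in low-RFI and 3.68 in high-RFI pigs. A_72_P252252 gave -0.29 (SE 0.12, exact permutation p = 0.0224, limma adjusted p = 0.861), with each of the 8 low-RFI pigs under the high-RFI mean. In the gene table of assembly Sscrofa11.1, a neighbouring locus (LOC100739741) also carries CYP2C33 as a synonym, so the transcript behind each early probe is uncertain.

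On CYP2C49 probes A_72_P496311 and A_72_P146661 the pigs fell into levels, with widest gaps of 0.94 and 0.88 between neighbouring pigs. On A_72_P496311, 7 pigs lay between 1.77 and 2.26, 2 at 3.20 and 3.32, and 7 between 4.21 and 4.89, an 8.72-fold range. The 7 low pigs were 2 low-RFI and 5 high-RFI animals. The same 7 pigs lay below the widest gap on A_72_P146661, where they ran from 3.23 to 3.64 and the others from 4.51 to 5.89. All 7 were among the 8 lowest on A_72_P523435, where the widest gap was only 0.47. Gaps were not particular to this gene. On the brightest probes the widest was 0.71 for CYP1A1 (3 pigs below), 0.95 for CYP2B22 (2 above) and 0.46 for CYP2A19 (9 below). By line, the brightest probe (A_72_P523435) ran from 3.73 over 5.40 to 5.93 in low-RFI and from 3.90 over 4.46 to 5.71 in high-RFI pigs, which overlap over nearly the whole range. Its change was 0.46 (SE 0.34, limma adjusted p = 0.979), and the other probes gave 0.71 and 0.72. Within slides it was -0.32, 0.82, -0.02 and 1.36. CYP2C49 correlated with array noise (r = -0.630), which also differs between the lines. With that noise as a covariate the change was -0.37, a turn of direction. Without the 5 marked arrays it was 0.0096 (SE 0.47).

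CYP2D25 is known in pig liver as a microsomal vitamin D 25-hydroxylase. Its brightest probe ran from 7.55 over 8.11 to 8.45 in low-RFI and from 6.94 over 7.69 to 8.24 in high-RFI pigs. Of the low-RFI pigs 7 of 8 lay above the high-RFI mean, while the upper high-RFI pigs reached well into the low-RFI range. The change was 0.42 (SE 0.18, 1.34-fold, exact permutation p = 0.0426, limma adjusted p = 0.885). The other probes gave 0.52 (SE 0.19) and 0.55 (SE 0.20), and on A_72_P528160, shown above, all 8 low-RFI pigs lay above the high-RFI mean. Within slides the brightest probe gave 0.31, 0.89, 0.17 and 0.32, the same direction on 4 of 4. It was 0.38 (SE 0.26) with array noise as a covariate and 0.62 (SE 0.25) without the 5 marked arrays.

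CYP2E1 oxidises ethanol and other small molecules. Its brightest probe ran from 7.79 over 8.43 to 8.69 in low-RFI and from 7.93 over 8.32 to 8.62 in high-RFI pigs, a near complete overlap. The change was 0.07 (SE 0.13, limma adjusted p = 0.997), and the other probes gave -0.03 and 0.02. Low-RFI pig 8 was lowest on all 3 probes, and on A_72_P594384 it stood at 5.94 against 7.40 to 7.72 in the other low-RFI pigs.

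Of the CYP3A genes, relatives of the main drug-metabolising enzyme of human liver, CYP3A29 had the smallest p of the set. Its brightest probe ran from 5.08 over 5.43 to 5.74 in low-RFI and from 5.26 over 5.93 to 6.27 in high-RFI pigs. Every one of the 8 low-RFI pigs was under the high-RFI mean, and 1 high-RFI pig, number 7, was low among the low-RFI pigs. The change was -0.48 (SE 0.14, 1.40-fold lower, exact permutation p = 0.00622, limma adjusted p = 0.521). The other probes gave -0.58 (SE 0.18) and -0.57 (SE 0.16). On A_72_P088491, which lies elsewhere in the transcript, 5 low-RFI pigs lay below the lowest high-RFI pig. Within slides the brightest probe gave -0.79, -0.64, -0.29 and -0.21, the same direction on 4 of 4. CYP3A29 correlated with array noise (r = 0.577), and its change was -0.38 (SE 0.20) with the noise as a covariate and -0.40 (SE 0.21) without the 5 marked arrays. With the noise as a covariate none of the 10 genes had an unadjusted limma p under 0.05. GLUL, a marker of the hepatocytes next to the central vein, lay in the same direction at -0.49 (SE 0.19, exact permutation p = 0.0275, limma adjusted p = 0.752). Of its list of 10 pericentral markers 6 were tested, with 1 above and 5 below 0 and a median of -0.05, and the list's mean level ran from 0.98 to 1.76 in low-RFI and from 0.95 to 1.65 in high-RFI pigs. Over the 16 pigs CYP3A29 and GLUL had r = 0.363 (permutation p = 0.167, adjusted 0.768) and rho = 0.40 (adjusted 0.440), with r = 0.0704 without the 2 pigs farthest from the median. Their r was 0.151 within low-RFI and -0.112 within high-RFI pigs, and -0.0259 with levels centred on line. The part of pericentral cells in the CYP3A29 difference was not tested beyond these values.

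CYP3A39 had a single probe, which ran from 7.39 over 7.99 to 8.78 in low-RFI and from 7.41 over 8.12 to 8.58 in high-RFI pigs. The lines overlapped almost fully, and the change was -0.10 (SE 0.19, limma adjusted p = 0.998). The gene table of Sscrofa11.1 lists CYP3A39 as a synonym of CYP3A46, a neighbour of CYP3A29, for which the array has 4 further probes. The CYP3A39 probe correlated with these over pigs at r = 0.633, 0.487, 0.441 and -0.071, and the 4 gave changes from -0.24 to -0.10. Whether the single probe and the CYP3A46 probes read 1 transcript or several is uncertain.

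**Figure D2:**
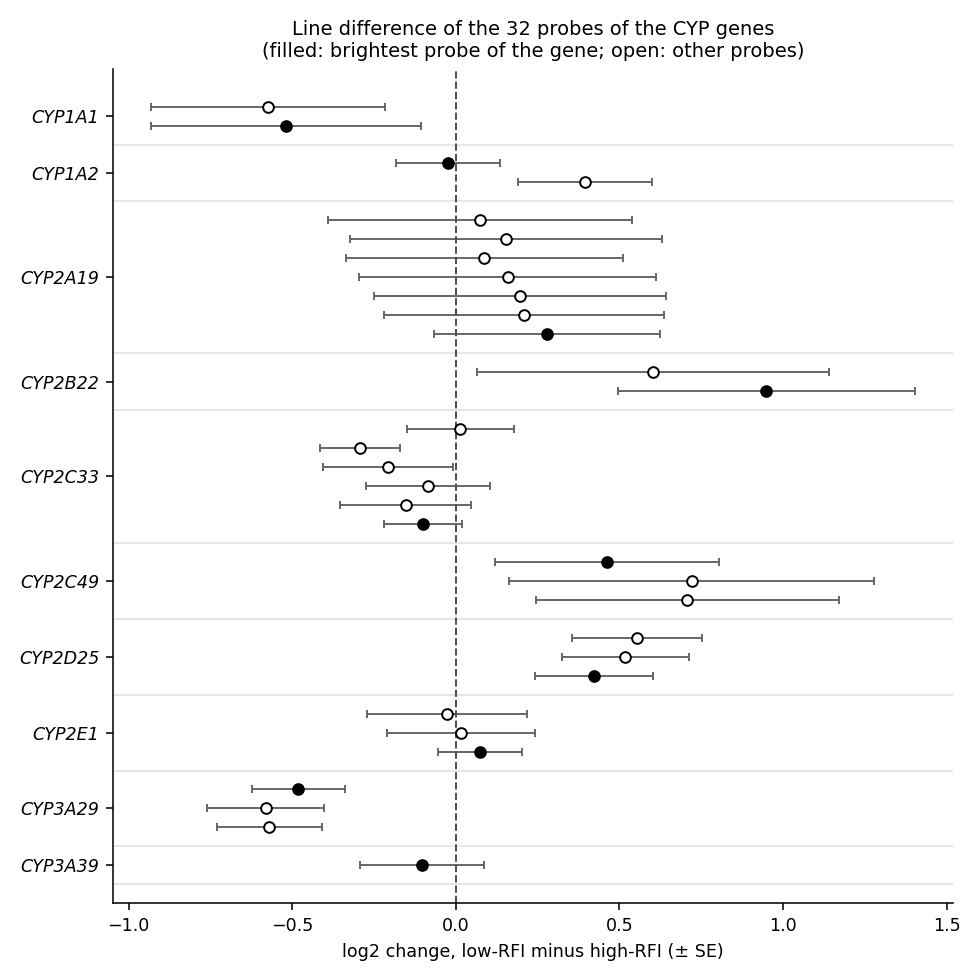
Log2 change, low-RFI minus high-RFI, of each of the 32 probes (x axis, bars ± SE), grouped by gene on the y axis, with the gene's brightest probe filled. The 3 probes of CYP2D25 lie to the right of 0 and the 3 of CYP3A29 to the left by more than their SE, while the 2 probes of CYP1A2 and the first 2 of CYP2C33 disagree.

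The genes differed widely in how far pigs of a line lay apart. The spread is given here as the SD of log2 level within a line, whose median over all tested probes was 0.33. The SD of repeated spots within an array had a median of 0.12. CYP2A19, CYP2B22, CYP1A1 and CYP2C49 stood out: their brightest probes had SDs of 0.755, 0.999, 0.906 and 0.75, and each exceeded at least 96.6% of the probes within 0.5 of its own mean level. Between the lowest and highest pig, the CYP2A19 probes spanned 4.69-fold to 12.02-fold, the CYP2B22 probes 11.9-fold and 16.5-fold, and the CYP1A1 probes 6.56-fold and 9.23-fold. The ranges of CYP2C33 (1.93-fold), CYP2E1 (1.87-fold), CYP1A2 (2.22-fold) and CYP3A29 (2.27-fold) on their brightest probes were far narrower. For CYP2E1 this held on the brightest probe only, as its other probes spanned 4.72-fold and 3.44-fold. Set beside probes of like level, CYP3A39 (percentile 95.9) and CYP2D25 (percentile 91.6) were also among the more variable. CYP2E1 lay at percentile 85.6 on its brightest probe and at 90.3 and 93.9 on its other probes. CYP3A29 lay near the middle (percentile 55.1). Except for CYP1A1, the brightest probe gave the narrowest range of each gene with several probes, so a range depends on the probe it is read from.

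**Figure D3:**
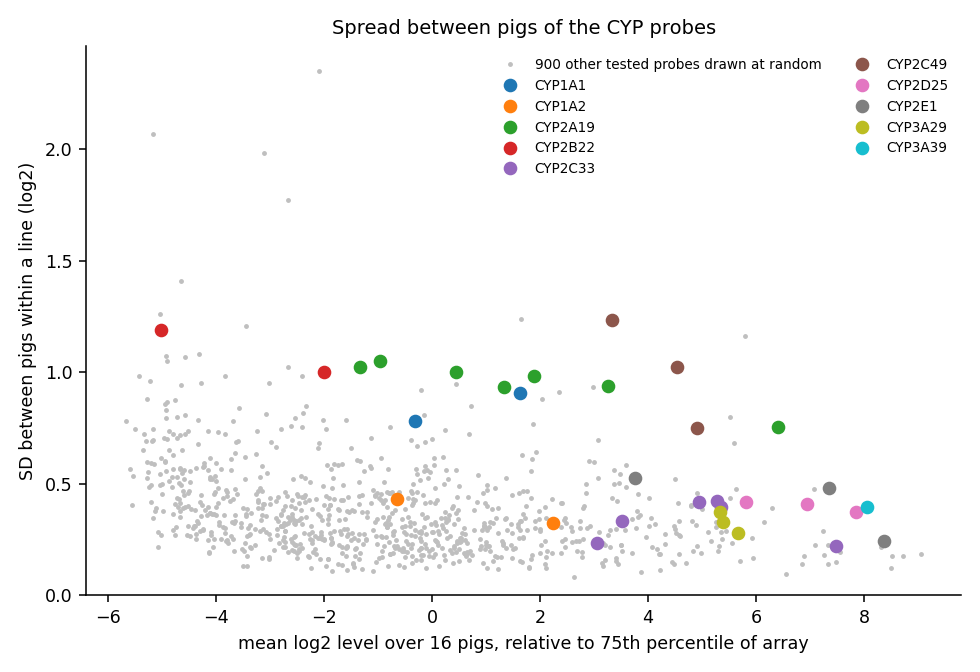
SD of log2 level between pigs within a line (y axis) against mean log2 level (x axis) for the 32 probes of the 10 genes (coloured) and 900 other tested probes drawn at random (grey). The CYP2A19, CYP2B22, CYP1A1 and CYP2C49 probes lie above 0.7 at every level, and the CYP3A29 and CYP1A2 probes lie among the grey points.

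Some of the genes ran together from pig to pig. Of the 45 pairs of brightest probes, 0 passed a two-sided permutation test of Pearson's r with Benjamini-Hochberg adjustment, 8 reached p under 0.05 before adjustment, and by Spearman's rho 2 passed. CYP2A19 and CYP3A39 had r = 0.709 (permutation p = 0.0022, adjusted 0.0799) and rho = 0.747 (permutation p = 0.00135, adjusted 0.0304). Their r was 0.737 within low-RFI and 0.819 within high-RFI pigs, and 0.630 without the 2 pigs farthest from the median. The deposited scans are numbered 1 to 8 and 55 to 62, with 1 pig of each line from either range on every slide. What the numbers stand for is not stated, and they are used here only to split the pigs by sample number. The r of CYP2A19 and CYP3A39 was 0.531 in the lower and 0.766 in the higher number range. CYP2A19 and CYP2B22 had r = 0.645 (permutation p = 0.00711, adjusted 0.107) and rho = 0.756 (permutation p = 0.00094, adjusted 0.0304). Their r was 0.584 within low-RFI, 0.865 within high-RFI, 0.439 in the lower and 0.761 in the higher number range, and 0.585 without 2 pigs. In the gene table CYP2A19 and CYP2B22 lie close together in the CYP2 cluster, while CYP3A39 belongs to another cluster. CYP2B22 and CYP2D25 had r = 0.685 (permutation p = 0.00355, adjusted 0.0799) and rho = 0.656 (adjusted 0.108), with r = 0.511 without 2 pigs. The neighbours CYP1A1 and CYP1A2 did not follow each other on their brightest probes (r = -0.202).

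**Figure D4:**
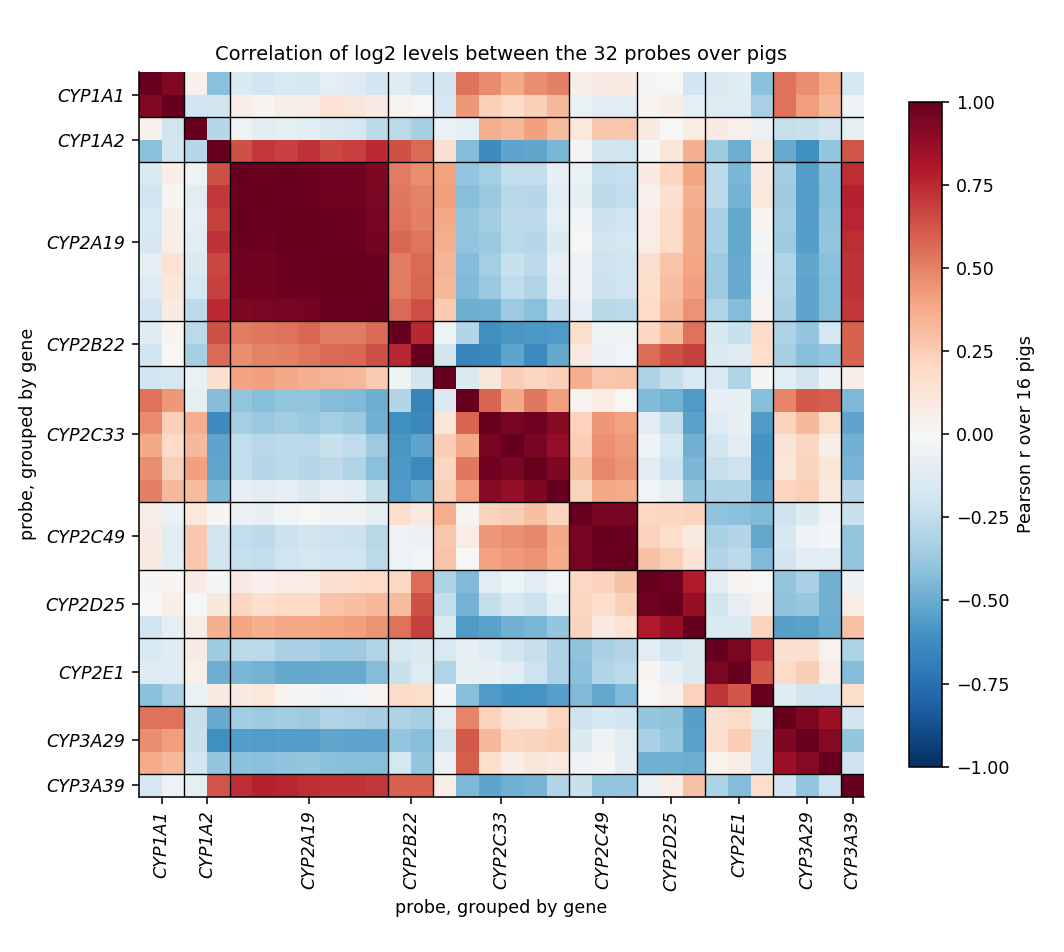
Pearson r of log2 level over the 16 pigs between each pair of the 32 probes, grouped by gene on both axes, from blue (-1) to red (1). CYP2A19 forms a uniform block (0.933 to 0.998); the second CYP1A2 probe correlates with that block at 0.637 to 0.747 and not with the first CYP1A2 probe (-0.285), and the first CYP2C33 probe stands apart from the other CYP2C33 probes.

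For each member the 3 other genes with the highest r over the 16 pigs were taken from 4331 genes, as a description without a test, since the highest of so many values is high by selection. CYP2C49 was most like LOC100156823, annotated as cytochrome P450 2C19-like, at r = 0.919 (rho = 0.894), with 0.894 within low-RFI and 0.940 within high-RFI pigs. On CYP2C49 probe A_72_P496311 the r was 0.978. The LOC100156823 probe shared no more than 22 letters with any CYP2C49 probe in the best gap-free alignment. That alignment sets probes against probes and not against transcripts. Whether the LOC100156823 probe also binds the CYP2C49 transcript was therefore not tested. CYP2B22 was most like LOC100158077 (r = 0.877), whose probe is described as a CYP4V2 transcript, and then CRIPT (0.812). CYP2A19 was most like LOC100522655 (0.836), the channel gene VDAC1 (0.829) and DHDH (0.819), a dihydrodiol dehydrogenase that acts on oxidised aromatic compounds.

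CYP3A29 was most like UABP-2 (r = 0.926, rho = 0.918) and UFBP (0.920), 2 serpin-family proteins known as uteroferrin-associated proteins of the pig uterus, and MYO6 (0.847). The UABP-2 relation was 0.807 within low-RFI and 0.900 within high-RFI pigs, 0.971 in the lower and 0.853 in the higher number range, and 0.890 without 2 pigs. All 16 arrays had the UABP-2 probe well above background. UABP-2 ran from -5.52 over -4.55 to -3.85 in low-RFI and from -5.18 over -3.23 to -2.44 in high-RFI pigs, so the high-RFI pigs were mostly higher, with 1 among the lowest. Its change was -1.19 (SE 0.34, limma adjusted p = 0.493), and the 3 UFBP probes gave -1.23 to -1.20. The high-RFI pig lowest in UABP-2 was also the one lowest in CYP3A29.

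CYP3A39 was most like CLK3 (0.850), PKN3 and ACAN, CYP2D25 like RPL14 (0.802), DCAF4 and ZNF389, CYP1A2 like SETDB1 (0.805), STAT2 and ACADM, and CYP1A1 like NDUFB8 (0.739), PKIG and DLD. CYP2E1 was most like the complement gene CFB (0.793), LOC100153211 and the haem-binding plasma protein HPX (0.754). CYP2C33 was most like AGK (0.881), TRIM10 and SMNDC1, but the AGK relation was -0.327 in the lower number range and 0.992 in the higher one, which holds low-RFI pig 7.

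**Figure D5:**
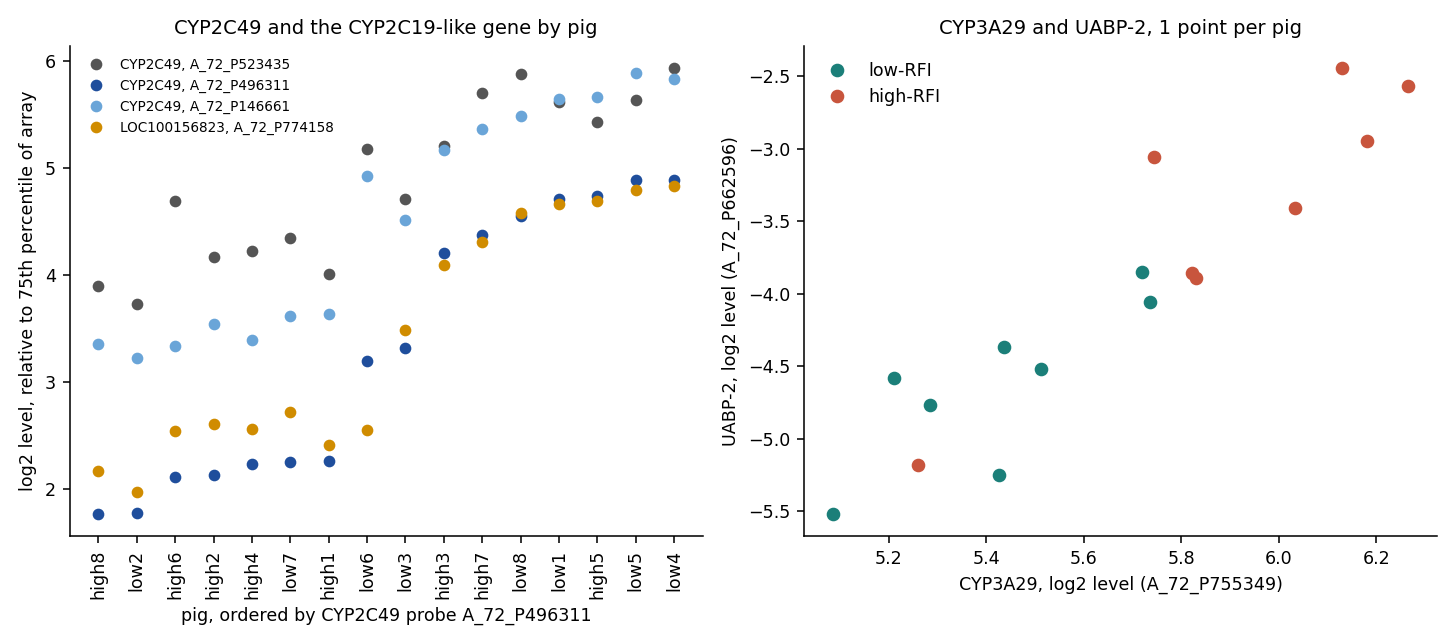
Left: log2 level (y axis) of the 3 CYP2C49 probes and the LOC100156823 probe in each pig (x axis, named by line and replicate, ordered by A_72_P496311), to be compared within a probe only; 7 pigs lie low before the step. Right: UABP-2 against CYP3A29, both as log2 level, 1 point per pig (r = 0.926), with 1 high-RFI pig among the low-RFI pigs at the lower left.

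Levels of the 10 genes were set over pigs against 8 other genes: the regulators AHR, ARNT, NR1I2, NR1I3 and HNF4A, the redox partners POR and CYB5A, and the pericentral marker GLUL. Of the 80 relations 0 passed adjustment by a two-sided permutation test of r or of rho, and 3 had an unadjusted p under 0.05 by r. The largest was between CYP3A39 and HNF4A, a liver-enriched transcription factor, at r = -0.724 (permutation p = 0.00179, adjusted 0.143) and rho = -0.759 (adjusted 0.0856), with -0.798 within low-RFI and -0.639 within high-RFI pigs, -0.641 in the lower and -0.710 in the higher number range, and -0.693 without 2 pigs. CYP3A39 also ran with NR1I3 at r = 0.548 (permutation p = 0.0279, adjusted 0.733), a value of 0.089 in the lower and 0.647 in the higher number range. CYP2D25 ran with cytochrome b5 (CYB5A) at r = 0.548 (permutation p = 0.0287, adjusted 0.733), with 0.614 in the lower and 0.413 in the higher number range.

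The other genes of drug metabolism, taken from fixed lists, also had no member past the adjusted threshold by limma. Of 20 receptors and partners 14 were tested, with 4 above and 10 below 0 and a median of -0.07; the smallest p-values were those of CEBPA, a liver transcription factor, at -0.32 (SE 0.16, adjusted p = 0.945) and NR1I3 at -0.20 (SE 0.14). Of 17 electron donors and haem genes 8 were tested, with 5 above and 3 below 0. CYB5B stood at -0.36 (SE 0.19, adjusted p = 0.960) and POR at 0.12 (SE 0.17). Of 28 other CYP1 to CYP4 genes 5 were tested, with CYP3A46 at -0.24 (SE 0.14) and CYP4A21 at 0.25 (SE 0.22). The 4 CYP4A21 probes ran from -0.09 to 0.29. Of 28 other oxidation, reduction and hydrolysis genes 15 were tested, with 8 above and 7 below 0. Of these ALDH2, the mitochondrial acetaldehyde dehydrogenase, stood at 0.26 (SE 0.11, exact permutation p = 0.0146, limma adjusted p = 0.893) with 9 probes from 0.22 to 0.30, and AKR1C4, a hydroxysteroid dehydrogenase, at 0.58 (SE 0.29, adjusted p = 0.941).

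Conjugation enzymes lay mostly above 0, with 10 of 13 tested genes, of 38 listed, and a median of 0.15, where 49.7% of all tested probes lay above 0. All 10 tested hepatocyte markers also lay above 0, with a median of 0.05, and their part in the conjugation count was not tested. The smallest p-values were those of the oestrogen sulfotransferase SULT1E1 at 0.45 (SE 0.23, adjusted p = 0.945) and, in the other direction, the glutathione transferase GSTA1 at -0.44 (SE 0.24, adjusted p = 0.963). Of 19 transporters 8 were tested, 5 above and 3 below 0, with the canalicular exporter ABCC2 at 0.44 (SE 0.22, adjusted p = 0.935) and ABCB4 at -0.21 (SE 0.20). The 4 ABCC2 probes ran from 0.0033 to 0.44. Among 13 tested genes of the acute phase response, during which hepatic P450 transcripts are known to be lowered, 9 lay above and 4 below 0. STAT3 stood at 0.37 (SE 0.19, adjusted p = 0.945), with 4 probes from 0.05 to 0.63, and FGG at 0.32 (SE 0.22). None of these list counts was tested as a list.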

How the data were processed

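Liver RNA was labelled with Cy3 and hybridised to 1-colour Agilent arrays. Per the file headers, scans were read with Feature Extraction 10.7.3.1, and the deposited processed signal is an intensity, background-subtracted within its array and not normalised between arrays. The authors' deposited table holds log2 values of 27938 spots. Each value equalled the log2 processed signal minus the array's median over listed spots, to within 4.48e-08, and 31 of the 32 member probes are listed. R 2.10.0 is named in the submitters' processing notes.

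Outlier-flagged spots were left out, each array was scaled by subtracting its 75th percentile of log2 signal, and spots of a probe were averaged. Probes well above background on at least 8 of 16 arrays were tested (30097, leaving out 13506) with limma 3.58.1 in R 4.3.3. The gene's tested probe with the highest mean level represents it. Symbols come from the scanner files and the RefSeq gene table, used for names and neighbours only, without coordinates. Correlations used 100000 permutations, and single differences an exact two-sided permutation test over all 12870 splits of the pigs. Correlations of array noise and likeness have no test. Deviations of same-numbered pigs from their line means had r above 0 for every number (0.0475 to 0.395), with numbers 1 and 6 under 0.1. The main fit does not take numbers as pairs, and the replicate number as a block is given as an alternative. Named genes were all members, the 2 genes of smallest p per list, and the 3 most alike genes per member. Members and lists were chosen with earlier results of these data known. The script was checked on simulated data. Alternatives are given at the end.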

Additional observations from a re-analysis of the deposited data

Results flagged for a closer look

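Low-RFI pig 8 had a CYP2E1 level of 7.79, against 8.38 to 8.69 in the other 7 low-RFI pigs, a gap of 0.660 of the range of its line. By Dixon's criterion for 8 values at the 95% level it stands apart from its line. Such a gap arises by chance in about 1 in 20 groups, and this was 1 of the 20 groups of brightest probes examined. Over all 32 probes, 5 of 64 groups had such a gap, and all 5 were CYP2E1: low-RFI pig 8 on each of the 3 probes, and high-RFI pig 7 on A_72_P579098 (3.13 against 3.73 to 4.01) and on A_72_P594384 (6.52 against 7.26 to 7.62).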

How the results depend on the processing

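No member passed the adjusted threshold under any of 22 alternatives, with a smallest limma adjusted p of 0.244 (array weights), or without any 1 pig (0.332 to 0.789). CYP3A29, CYP2D25 and CYP2B22, read by the brightest probe or by the mean over probes, kept their direction under all of these. The second CYP2B22 probe turned from 0.60 to -0.20 with array noise as a covariate. Other changes turned. CYP1A2 stood at 0.0107 with the median of each array, at 0.192, 0.0893 and 0.137 on slides 1, 2 and 3 alone, at 0.185 as a mean over its probes, and from -0.120 to 0.0438 without 1 pig. CYP1A1 stood at 0.571 and 0.0903 on slides 3 and 4 alone and at 0.154 without the 5 marked arrays. CYP2A19 stood at -0.208 on slide 3 alone, CYP2C33 at 0.0222 on slide 4 alone, and CYP2C49 at -0.319 and -0.0171 on slides 1 and 3 alone and at -0.371 with array noise as a covariate. CYP2E1 stood at -0.0114 and -0.106 and CYP3A39 at 0.254 and 0.275 on slides 1 and 4 alone. The cause was not tested. Each slide alone holds 4 pigs. The count of genes at an unadjusted p under 0.05 was 0 with array noise as a covariate and on slide 3 alone, 4 with array weights and on slide 2 alone, and 1 to 4 without 1 pig. It was 3, with CYP2B22 added, under quantile, loess, median and normexp scaling, in the authors' deposited table, and with the slide as a fixed block or the replicate number as a block. Without the 5 marked arrays it was 1. Pairs of members past adjustment by r were 2 with levels centred on line and 0 to 3 without 1 pig: 3 without low-RFI pig 4, 2 without low-RFI pig 1, and 1 each without low-RFI pig 3, high-RFI pig 4 and high-RFI pig 5. With the replicate number as a block, 0 members and 4 probes of the array passed, against 3 without it. Normexp correction moved the median of all probes to 0.09, and the median of the members was then -0.01. Array position, array noise and the marked arrays were examined after the data had been seen. CYP2B22's second probe was well above background on 9 arrays and limits what can be said of that gene.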
